A study of Drosophila melanogaster with 6 samples.

Results

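The oxidative phosphorylation machinery is built from subunits of 2 genomes, and the genes described here are those encoded in the nucleus. They were chosen by FlyBase symbol: every row of the count table named as an ND, UQCR, COX, ATPsyn or Sdh gene, together with *levy*, *ox*, *RFeSP*, *Cyt-c1*, *Cyt-c-d* and *blw*. This gave 92 of 17558 gene rows. Of these, 68 are ordinary subunits (34 of complex I, 4 of complex II, 9 of complex III, 9 of complex IV and 12 of complex V) and 24 are paralogs, most of them named for a subunit with an L added, of a kind that is commonly expressed in the testis. *Cyt-c-p*, the somatic cytochrome c gene, was the 1 symbol of the rule without a matching row, and is not analysed here.

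In the respiratory chain, complex I takes electrons from NADH and complex II takes them from succinate, and both pass them to ubiquinone. Complex III hands them to cytochrome c, and complex IV uses them to reduce oxygen. Complexes I, III and IV pump protons, and complex V, the ATP synthase, lets the protons flow back to make ATP. The proteins are made on cytosolic ribosomes from nuclear genes or inside the mitochondrion from mitochondrial genes, and photoreceptors are known for a high demand for ATP.

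RNA was taken from male flies 10 days after eclosion that carried a UAS transgene for GFP fused to the KASH domain of *Msp300* and the *Rh1-Gal4* driver, in a w and ry[506] background, reared at 25 °C under alternating light and dark. The 3 pre-isolation samples are total RNA of head homogenate, and the 3 post-isolation samples are nuclear RNA of the GFP-tagged nuclei pulled from such homogenates with a GFP antibody and washed in 300 mM NaCl. Both groups have the same genotype and age, each sample pools the heads of many males, and *Rh1-Gal4* is active in outer photoreceptors but, by the study's own account, also in the antenna. The comparison asks how the RNA of tagged nuclei differs from that of the whole head, so it changes the cells and the RNA compartment together, and these cannot be told apart. In such bulk samples, fewer cells of a type and less RNA per cell cannot be told apart either.

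The libraries held 9999540 to 14522962 gene counts. All 12 photoreceptor markers tested were higher after isolation against no change, 11 of them by more than 2-fold. Their summed share of the gene counts went from 4.67-4.93% before to 9.86-12.0% after isolation. The marker not past 2-fold was *ninaE* (0.86). The list includes *Rh3*, *Rh4*, *Rh5* and *Rh6* (1.81 to 2.53), which by the paper's account outer photoreceptors do not express. The paper attributes the enrichment of such opsins to labelled neurons of the antenna. The 8 glial markers took 0.260-0.277% before and 0.0855-0.131% after isolation, and 7 of the 8 were lower against no change. The 10 fat body markers took 0.996-1.16% and 0.239-0.418%, with 3 of 5 tested lower and 1, *Yp3*, higher. The 4 matched markers of pigment and cone cells took 0.441-0.469% and 0.191-0.262%. Of these, *ct* and *pros* were lower and *Crys* and *w* higher, but the UAS transgene carries a *w* marker, so *w* need not mark pigment cells. The 6 matched genes listed for other neurons took 0.470-0.480% and 0.401-0.414%. The transmitter genes *ChAT*, *Gad1* and *VGlut* were lower (-0.90, -1.43 and -0.74). *elav* and *brp* were higher and *nSyb* was not called, but these are general neuronal genes that photoreceptors also express, so the summed share does not measure other neurons. The 9 of muscle took 0.113-0.127% and 0.0745-0.131%, with 4 of 7 tested lower and 2 higher. No defining marker of these lists was at 0 in every library. The part of these other cell types in the results below was not tested.

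The nuclear-encoded oxidative phosphorylation genes were mostly lower after isolation. Together the 92 genes took 0.964%, 0.917% and 0.950% of the gene counts in the 3 pre-isolation samples and 0.382%, 0.386% and 0.432% in the 3 post-isolation samples, which is 2.36 times less on average. The groups did not overlap, and the exact two-sided permutation test gave p = 0.1, the smallest value that 3 against 3 samples allow. After a filter that kept genes above 1 CPM (counts per 1000000 gene counts of a library) in at least 3 samples, 74 of the 92 genes were tested with edgeR among 10378 genes. Against a 2-fold change at a false discovery rate (FDR) of 0.05, 14 members (18.9%) were lower, against 4.89% of all tested genes. No member was higher, against 7.29% of all tested genes: 0 had an unadjusted p under 0.05 in that direction, and DESeq2 called 0 as well. Against no change, 54 members (73.0%) were lower, where 26.1% of all tested genes were, and 0 were higher, where 24.4% were, although *UQCR-11* and *ND-51L1* had an unadjusted p under 0.05. The median log2 fold change was -1.01 over the tested members and -0.07 over all tested genes. Genes at higher levels were called more often, and the members are abundant. In the top quartile of pre-isolation CPM, 38.8% of all genes were lower against no change and 9.71% passed the 2-fold test as lower. Of the 41 ordinary subunits in that quartile, 33 and 12 did, and their median was -0.95, against -0.01 for all its genes.

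Among the 66 ordinary subunits that were tested, 53 were lower against no change and 58 had a negative log2 fold change. Every post-isolation sample lay below every pre-isolation sample for 55 of the 66, while 30.1% of all tested genes had this order. The 14 genes past the 2-fold test were all ordinary subunits, with 5 in complex IV, 6 in complex V, 2 in complex III, 1 in complex I and 0 in complex II. A further 6 members had an FDR between 0.05 and 0.15. DESeq2 at the same fold kept 9 of the 14, without *ATPsynF*, *COX7A*, *COX7C*, *ND-B12* and *UQCR-14* (FDR 0.064, 0.31, 0.30, 0.069 and 0.17). Scaling by library size alone moved the median of all tested genes to -0.51 and that of the members to -1.46. With it, 40 members passed, but more genes were called lower in all, 1253 of 10378, against 508 with the TMM scaling used here. The members' median lay 0.95 below that of all genes, against 0.94 with TMM.

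**Figure D1:**
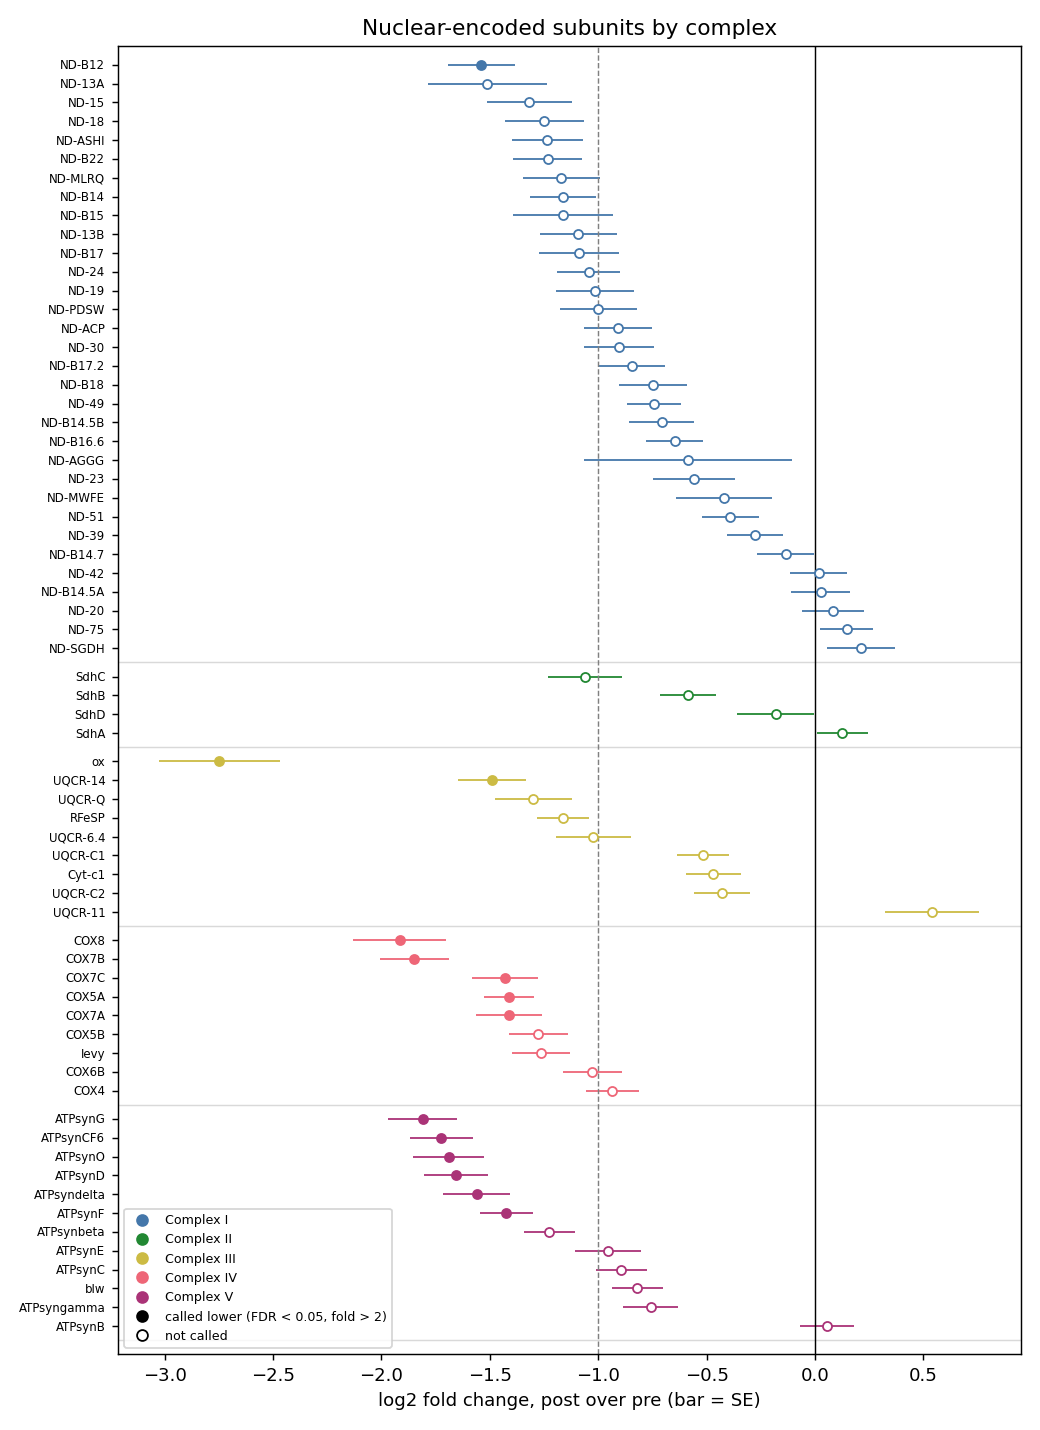
Log2 fold change (post over pre, x axis) of each of the 66 tested subunits (rows), grouped by complex, with bars for the standard error of the edgeR fit and filled points for the 14 called lower. Complexes IV and V hold 11 of the 14 filled points, *ox* stands lowest at -2.75, and 8 subunits lie above 0 with this scaling (TMM), of which 7 lie below 0 when libraries are scaled by size alone.

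The complexes stood at different levels of this change. The median log2 fold change was -0.88 over 32 tested subunits of complex I, -0.38 over the 4 of complex II, -1.02 over the 9 of complex III, -1.41 over the 9 of complex IV and -1.32 over the 12 of complex V. The medians taken within each of the 3 sample pairs were -0.96, -0.77 and -0.94 for complex I, -0.37, -0.21 and -0.69 for complex II, and -1.48, -1.11 and -1.31 for complex IV. In every pair, complex IV was therefore below complex I, and complex I below complex II. Complex V had pair medians of -1.44, -1.23 and -1.31, and complex III of -1.04, -0.90 and -0.96.

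A similar order can be read from the raw counts of the subunits alone, with no scaling between libraries. Complex I made up 24.5%, 26.1% and 24.9% of the subunit counts before isolation and 31.2%, 31.2% and 29.3% after it. Complex II went from 4.92%, 4.94% and 4.77% to 7.95%, 7.39% and 7.26%. Complex IV went the other way, from 17.7%, 17.3% and 17.4% to 11.8%, 14% and 12.7%. Complex V went from 40.2%, 38.3% and 39.7% to 34.9%, 33.9% and 36.5%. None of these 4 shares overlapped between the groups. That of complex III, at 12.6%, 13.4% and 13.2% before and 14.2%, 13.5% and 14.2% after isolation, was separated by a narrow margin. Each of these 5 shares gave p = 0.1 in the exact two-sided permutation test, again the smallest possible value.

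**Figure D2:**
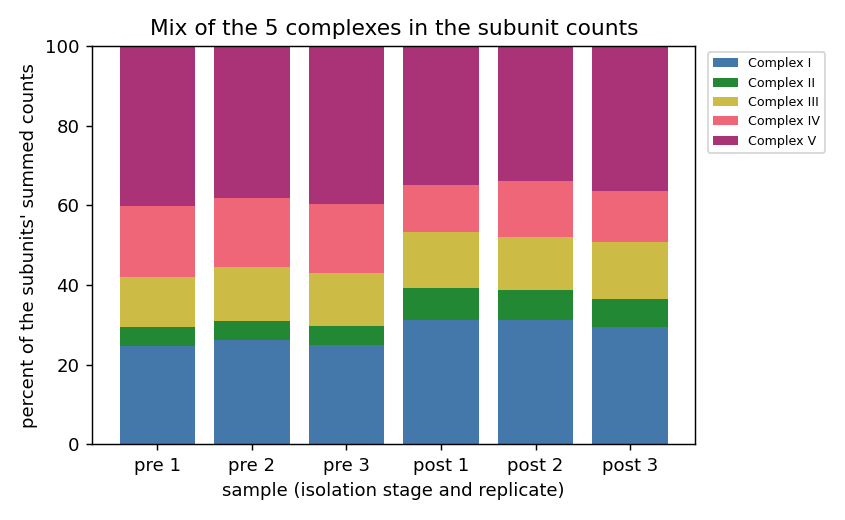
Percent of the summed counts of the 68 subunits taken by each complex (y axis) in the 6 samples (x axis), as stacked bars from 0. Complexes I and II took a larger part in all 3 post-isolation samples (29.3-31.2% and 7.26-7.95%) than in the pre-isolation samples, and complex IV a smaller one (11.8-14%).

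Complex I is the entry point for electrons from NADH. Against no change, 23 of its 32 tested subunits (71.9%) were lower, where 26.1% of all tested genes were. Only 1 (3.1%) passed the 2-fold test, below the 4.89% of all tested genes. This was *ND-B12*, a small accessory subunit (FBgn0034645, on 2R from 21658078 to 21658777 in BDGP6, 606 exonic bases in 4 exons). Its level was 61.3, 62.4 and 71.8 CPM before and 24.5, 20.1 and 22.5 CPM after isolation. The groups were well apart, with a log2 fold change of -1.54 ± 0.15 (SE) and an FDR of 0.0048.

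The core subunits of complex I, most of which carry its redox centres, ranged from little difference to a value near the median of the accessory subunits. *ND-75* is the large iron-sulfur subunit (FBgn0017566, on X from 8248651 to 8251687, 2634 exonic bases in 6 exons). It stood at 211, 239 and 201 CPM before and 267, 225 and 229 CPM after isolation. The groups overlapped, and the log2 fold change was 0.15 ± 0.12 (FDR 0.34 against no change). *ND-51*, which binds NADH and the flavin, stood at 146, 158 and 148 CPM before and 120, 129 and 95.4 CPM after isolation, a log2 fold change of -0.39 ± 0.13 (FDR 0.022 against no change). *ND-49*, of the arm that reduces ubiquinone, went from 117 ± 4.5 to 70.1 ± 6.42 CPM (SD, n = 3), a log2 fold change of -0.74 ± 0.12 (FDR 0.00017 against no change).

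Over the 7 nuclear-encoded core subunits, those with counterparts in bacteria, the median log2 fold change was -0.56 (range -1.04 to 0.15), with *ND-24* and *ND-30* lowest at -1.04 ± 0.14 and -0.90 ± 0.16. Over the 25 tested accessory subunits it was -1.0 (range -1.54 to 0.21). This grouping was made with the values in view and carries no test, and the ranges overlap widely. *ND-20*, a core iron-sulfur subunit encoded in 1 exon, had a log2 fold change of 0.08 ± 0.14, and the accessory subunits *ND-42*, *ND-B14.5A* and *ND-SGDH* had values of 0.02 ± 0.13, 0.03 ± 0.14 and 0.21 ± 0.16. None of these 4 passed the test against no change (FDR 0.66, 0.93, 0.89 and 0.28), and with *ND-75* they are the 5 complex I subunits above 0. All 5 lie below 0 when libraries are scaled by size alone, from -0.43 for *ND-42* to -0.24 for *ND-SGDH*, where the median of all genes is -0.51. The accessory subunit *ND-PDSW* had the highest level per exonic length of complex I before isolation, at 111 CPM per kb, and stood at 55.5 CPM per kb after isolation, with a log2 fold change of -1.0 ± 0.18.

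A pair of complex I subunits gave too few counts for the test. *ND-B8* had between 1 and 22 counts per library, and *ND-MNLL* had 0 in all 6, which allows at most 3 counts, or 0.230-0.276 CPM, per library, for counting error only. All exonic bases of *ND-MNLL* are shared with the gene *CG45089* on the same strand, and the counter leaves out reads that fall on 2 genes, so the value of 0 says nothing about the transcript. A further 7 members share part of their exonic bases with another gene on the same strand, most of all *COX6AL2* (67.0%) and *ND-MWFE* (15.2%).

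Complex II is the succinate dehydrogenase of the Krebs cycle, and none of its 4 subunits passed the 2-fold test. *SdhA*, the flavoprotein that oxidises succinate (FBgn0261439, on 2R from 19391863 to 19395971, 2750 exonic bases in 4 exons), was at 203, 214 and 198 CPM before and 246, 203 and 222 CPM after isolation. The groups overlapped, with a log2 fold change of 0.13 ± 0.12 (FDR 0.39 against no change), or -0.32 with library size alone. *SdhB*, the iron-sulfur subunit that takes the electrons from *SdhA*, was at 101, 89.5 and 96.3 CPM before and 62.1, 70.7 and 58.3 CPM after isolation, a log2 fold change of -0.59 ± 0.13 (FDR 0.0016 against no change). *SdhC*, a membrane anchor, had the lowest value of the complex, -1.06 ± 0.17. Per exonic length, *SdhA* was at 1.22-1.75 times the level of *SdhC* in the pre-isolation samples and at 3.10-3.50 times in the post-isolation samples. As these genes are the highest and lowest of the complex, the ratio restates their log2 fold changes and carries no test.

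Complex III held both the lowest and the highest log2 fold change of all tested subunits. The lowest was *ox*, a small accessory subunit (FBgn0011227, on 2R from 12757133 to 12757529), which at 331 bases in 2 exons also has the shortest exonic length of the tested subunits. It stood at 31.0, 20.7 and 27.3 CPM before and 3.35, 3.31 and 5.11 CPM after isolation. This was 6.71-fold lower, with a log2 fold change of -2.75 ± 0.28 and an FDR of 6.6e-05. *UQCR-14*, another accessory subunit, went from 111, 102 and 82.8 CPM to 34.0, 40.5 and 30.8 CPM, with a log2 fold change of -1.49 ± 0.16 and an FDR of 0.0088, which became 0.052 without pre-isolation replicate 1 and 0.17 in DESeq2. *UQCR-14* also had the highest level per exonic length of the complex before isolation, 189 CPM per kb.

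The highest was *UQCR-11* (FBgn0260008, on 3L from 25120709 to 25126171, 1613 exonic bases in 6 exons). It stood at 29.0, 21.1 and 24.1 CPM before and 38.8, 45.0 and 24.3 CPM after isolation, so the groups overlapped through post-isolation replicate 3, and its log2 fold change of 0.54 ± 0.22 did not pass the test against no change (FDR 0.051). The redox subunits and the large core protein lay between these ends. *RFeSP*, the Rieske iron-sulfur protein, went from 157, 165 and 184 CPM to 76.1, 74.3 and 75.6 CPM, a log2 fold change of -1.16 ± 0.12. *Cyt-c1*, the cytochrome that passes electrons to cytochrome c, had -0.47 ± 0.13, and *UQCR-C1*, a core protein that faces the matrix, had -0.52 ± 0.12. All 3 were lower against no change (FDR 1.7e-06, 0.0067 and 0.0024), and none was past the 2-fold test.

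Complex IV, cytochrome c oxidase, was the only complex in which all tested subunits were lower against no change, 9 of 9, and 5 of them passed the 2-fold test. Its catalytic core is encoded in mitochondria, and the nuclear subunits are small proteins around that core. *COX8* (FBgn0263911, on 3L from 21538859 to 21539447, 513 exonic bases) stood at 46.1, 36.5 and 31.3 CPM before and 8.94, 12.0 and 9.31 CPM after isolation, a log2 fold change of -1.92 ± 0.22 (FDR 0.0013). *COX7B* (FBgn0040793, on 3L from 17425477 to 17426282, 417 exonic bases) went from 77.2, 90.4 and 77.8 CPM to 19.6, 26.9 and 21.7 CPM, a log2 fold change of -1.85 ± 0.16 (FDR 0.00019). In both genes the lowest pre-isolation sample was far above the highest post-isolation sample.

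*COX5A*, the complex IV subunit with the highest level per exonic length before isolation (385 CPM per kb), stood at 311, 298 and 311 CPM before and 112, 108 and 126 CPM after isolation. Its log2 fold change was -1.41 ± 0.12 (FDR 0.0039). *COX7C* and *COX7A* had values of -1.43 ± 0.15 and -1.41 ± 0.15, with an FDR of 0.017 and 0.020, and these calls depended on single libraries: without post-isolation replicate 1 the FDR was 0.11 for *COX7C* and 0.12 for *COX7A*, without pre-isolation replicate 1 it was 0.075 for *COX7C*, and without pre-isolation replicate 3 it was 0.088 for *COX7A*. *COX4*, the largest nuclear subunit of the complex by exonic length, had the smallest difference, -0.94 ± 0.12, from 216, 234 and 243 CPM to 118, 135 and 108 CPM.

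**Figure D3:**
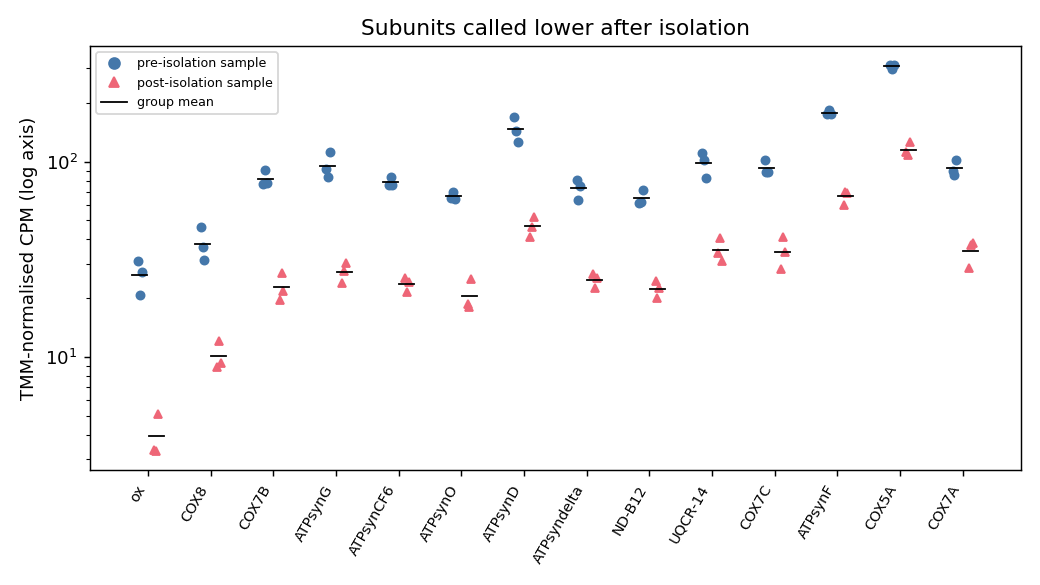
TMM-normalised CPM (log axis) of the 14 subunits called lower, ordered by log2 fold change, with 1 point per sample and a line at each group mean. The 3 post-isolation samples lie below the 3 pre-isolation samples for each gene, from *ox* at the left (20.7-31.0 against 3.31-5.11 CPM) to *COX7A* at the right (85.1-102 against 28.5-38.4 CPM).

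In complex V, 11 of 12 subunits were lower against no change and 6 passed the 2-fold test. *ATPsynG*, a subunit of the membrane part (FBgn0010612, on 2L from 10975522 to 10976399, 789 exonic bases), stood at 91.6, 83.0 and 112 CPM before and 23.9, 27.6 and 30.3 CPM after isolation, a log2 fold change of -1.81 ± 0.16 (FDR 0.00028). *ATPsynF*, also of the membrane part, had -1.42 ± 0.12 (FDR 0.0046). *ATPsyndelta*, of the central stalk that turns inside the head, had -1.56 ± 0.15 (FDR 0.0037), and with 3817 exonic bases it was the only gene longer than 1000 bases among the 14.

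The genes *ATPsynC* and *blw* had the highest levels per exonic length of all subunits in both groups, and with *ATPsynbeta* they had smaller differences than the 6 genes called. *ATPsynC*, which forms the proton-driven ring, had the highest level per exonic length before isolation, 454 CPM per kb, and was at 244 CPM per kb after isolation, the highest in both groups. Its counts gave 909, 792 and 842 CPM before and 492, 428 and 450 CPM after isolation, a log2 fold change of -0.89 ± 0.12. The alpha subunit gene *blw* went from 941, 881 and 944 CPM to 523, 474 and 570 CPM, -0.82 ± 0.12, and *ATPsynbeta*, the catalytic beta subunit on chromosome 4, from 413, 354 and 403 CPM to 175, 167 and 158 CPM, -1.23 ± 0.12. All 3 were lower against no change, and *ATPsynbeta* missed the 2-fold test at an FDR of 0.070. Alpha and beta alternate in equal number in the head, and the ratio of *ATPsynbeta* to *blw* per exonic length was 0.380-0.414 in the pre-isolation and 0.261-0.333 in the post-isolation samples.

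The side stalk, which holds the head still, gave a sharp contrast within a complex. *ATPsynD* stood at 170, 144 and 126 CPM before and 41.0, 46.5 and 52.2 CPM after isolation, a log2 fold change of -1.66 ± 0.15 (FDR 0.00082). *ATPsynCF6*, coupling factor 6, had -1.72 ± 0.15 (FDR 0.00033), and *ATPsynO*, which fastens the stalk to the head, had -1.69 ± 0.16 (FDR 0.0013). *ATPsynB*, the long arm of the same stalk (FBgn0019644, on 3L from 9729999 to 9731224, 918 exonic bases in 3 exons), instead stood at 131, 124 and 130 CPM before and 149, 135 and 116 CPM after isolation. Its groups overlapped, with a log2 fold change of 0.05 ± 0.12 (FDR 0.75 against no change), or -0.40 with library size alone and -0.02 without post-isolation replicate 1. The ratio of *ATPsynB* to *ATPsynD* per exonic length was 0.796, 0.893 and 1.07 before and 3.76, 3.01 and 2.3 after isolation. Against *ATPsynO* it was 1.55-1.77 before and 4.03-7.0 after isolation. These ratios were formed with the values in view, from a gene picked for its high log2 fold change. They restate the differences above and carry no test. *ATPsynB* and *ATPsynD* have nearly the same exonic length (918 and 950 bases).

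**Figure D4:**
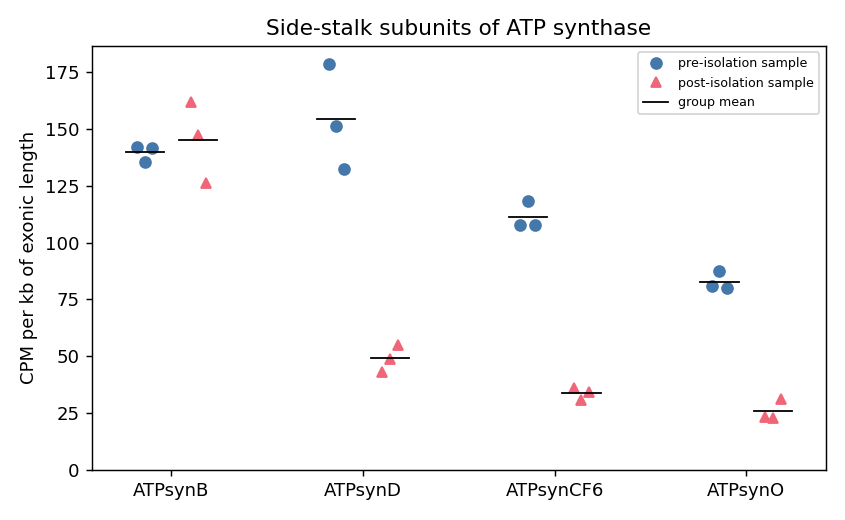
Level per exonic length (CPM per kb, y axis from 0) of the 4 side-stalk subunits of ATP synthase in the 3 pre-isolation and 3 post-isolation samples, with lines at the group means. *ATPsynB* overlaps between the groups (means 140 and 145 CPM per kb), while *ATPsynD* (154 and 49.0), *ATPsynCF6* (111 and 33.7) and *ATPsynO* (82.8 and 25.7) do not.

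The order of levels among the 66 subunits changed with these differences. *ATPsynC* and *blw* kept the ranks 1 and 2 per exonic length, and *COX5A* went from rank 3 to 5. *ATPsynB* moved from rank 16 to 4, *ND-75* from 33 to 12, *SdhA* from 39 to 15 and *ND-20* from 57 to 30, whereas *COX7B* moved from 7 to 25, *ATPsynG* from 18 to 43 and *ox* from 36 to 63. Exonic length here is the union of all annotated exons, so a gene with a rarely used long exon ranks too low.

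The log2 fold change varied with gene length. The tested subunits had a median exonic length of 879.5 bases, against 2022 bases over the 10169 tested genes with an annotation, and 42 of the 66 (63.6%) were under 1000 bases, against 18.3%. Across the 66 subunits, Spearman's rho of the log2 fold change with exonic length was 0.50, with exon number 0.27, with intron length 0.09 and with the pre-isolation CPM 0.09. Across all 10169 genes, rho with exonic length was 0.18. These points share the same 6 libraries and are genes, not replicates, so the values are descriptions. Of the 66 subunits, 11 (16.7%) lie on X, against 16.5% of all these genes.

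Short genes were lower in general, and the medians of the subunits were lower still in the same length classes. In the lowest length quartile of all tested genes, up to 1208 bases, the median log2 fold change was -0.32, while the 46 subunits in it had a median of -1.16. In the next quartile, up to 2022 bases, the medians were -0.16 for all genes and -0.52 for 15 subunits. Of the 42 subunits under 1000 bases, 13 (31.0%) passed the 2-fold test, against 12.2% of the 1858 genes of that length. Of the 24 longer subunits, 1 did (4.17%), against 3.19% of the longer genes. Against no change the figures were 35 of 42 (83.3%) and 18 of 24 (75%), against 30.6% and 25.0%.

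Length did not separate the complexes fully. Under 1000 bases, the median was -1.0 for 21 subunits of complex I, -0.62 for 2 of complex II, -1.39 for 4 of complex III, -1.41 for 8 of complex IV and -1.66 for 7 of complex V. At 1000 bases or more it was -0.65 for 11 subunits of complex I, -0.23 for 2 of complex II, -0.47 for 5 of complex III and -0.89 for 5 of complex V, and the 1 subunit of complex IV of that length had -0.94. Complex III thus lay below complex I among the short genes and above it among the long ones. The part of length in the differences between complexes was not tested.

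**Figure D5:**
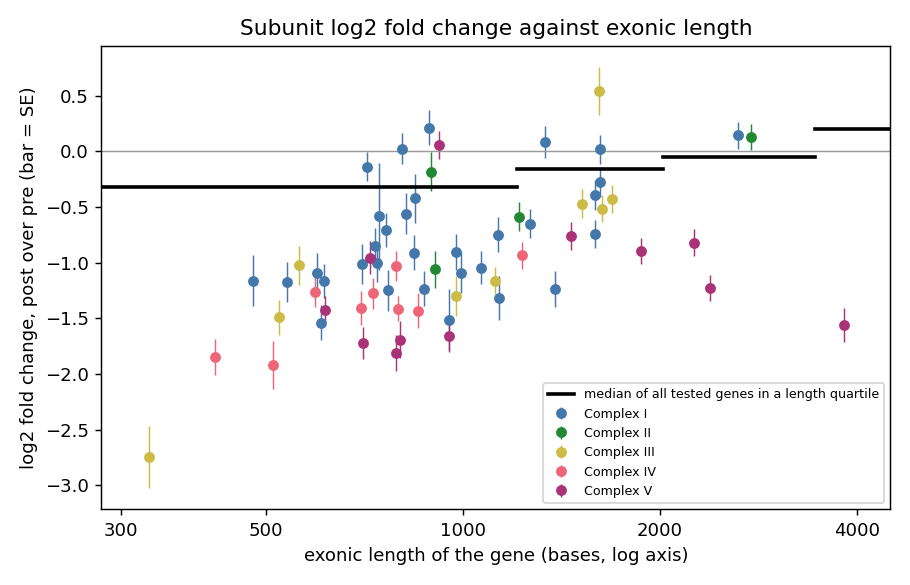
Log2 fold change (post over pre, y axis, bars for SE) of the 66 tested subunits against exonic length in bases (log x axis), coloured by complex. Black lines give the median of all tested genes in each quartile of exonic length (-0.32, -0.16, -0.05 and 0.20), and most subunits lie below them.

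The testis-type paralogs were near the limit of detection in both groups. The 24 genes together had 341, 291 and 204 counts before and 239, 211 and 209 counts after isolation, or 0.00259% ± 0.000505 and 0.00168% ± 9.08e-05 of the gene counts (SD, n = 3). In 6 of them (*ND-20L*, *ND-24L*, *UQCR-14L*, *COX6AL*, *COX7AL* and *ATPsynGL*) the count was 0 in all 6 libraries, which allows at most 3 counts per library, and a further 10 had too few counts to be tested. None of the 8 tested passed the 2-fold test, and 1, *ATPsynCF6L*, was lower against no change. Testis markers were scarcer: the 17 genes on that list had 27-48 counts before and 31-51 counts after isolation in sum, and 8 of them, *Mst84Da*, *Mst84Db*, *Mst87F*, *Mst98Ca*, *Mst98Cb*, *aly*, *ProtA* and *ProtB*, were at 0 in all 6 libraries.

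*ND-51L1*, a single-exon copy of *ND-51* (FBgn0034251, on 2R from 17595267 to 17597409), was the most abundant paralog. It had 76, 55 and 53 counts before and 124, 94 and 64 counts after isolation, or 4.36-5.82 and 5.84-10.7 CPM. With TMM scaling it was the 1 tested member whose post-isolation samples all lay above the pre-isolation samples, by a narrow margin (5.82 and 5.84 CPM). Pre-isolation replicate 1 had more raw counts than post-isolation replicate 3 (76 and 64), so this order depends on the scaling. The share of all tested genes with this order was not taken. The log2 fold change of *ND-51L1*, 0.77 ± 0.33, did not pass the test against no change (FDR 0.066). Per exonic length it reached 2.05-2.96% of the level of *ND-51* before and 4.54-6.58% after isolation.

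*SdhAL*, a single-exon copy of *SdhA*, had 39, 20 and 37 counts before and 14, 8 and 9 counts after isolation, a log2 fold change of -1.46 ± 0.59 (FDR 0.051 against no change). *ATPsynCF6L* had 31, 57 and 11 counts before and 12, 3 and 4 counts after isolation, which overlap, with a log2 fold change of -2.2 ± 0.76 (FDR 0.025 against no change). *Cyt-c-d*, the cytochrome c gene known for its role in sperm, had 26, 51 and 20 counts before and 21, 6 and 8 counts after isolation (-1.30 ± 0.63). The copies *ND-51L2*, *ND-49L* and *UQCR-11L* had at most 33 counts in a library and values of -0.64 ± 0.85, -0.31 ± 0.85 and -0.38 ± 0.63. The direction of the last 2 turned when 1 library was left out, to 0.31 for *ND-49L* without post-isolation replicate 1 and 0.03 for *UQCR-11L* without post-isolation replicate 3. Among the untested paralogs, *COX7AL2*, *COX6CL*, *UQCR-6.4L* and *ATPsynbetaL* had highest counts of 22, 12, 12 and 10 in a library and 0 in at least 1 other.

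A pair of paralogs lie directly downstream of the subunit they resemble, on the same strand. *COX5BL* starts 122 bases after the end of *COX5B* on 2L (6559431 to 6560133). It had 38, 8 and 5 counts before and 10, 30 and 78 counts after isolation, so pre-isolation replicate 1 and post-isolation replicates 2 and 3 were high and the groups overlapped. Its log2 fold change was 1.37 ± 0.75 (FDR 0.15 against no change), while *COX5B* itself had -1.28 ± 0.14. *COX7CL* starts 281 bases after *COX7C* on 2R and had 21, 2 and 7 counts before and 12, 12 and 11 counts after isolation. Whether these reads come from the paralogs' own transcripts was not tested.

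The mitochondrial-encoded subunits, which the rule does not include, were lower by more. All 13 had a negative log2 fold change with a median of -2.65, and 12 passed the 2-fold test. The exception, *mt:ATPase8*, had 1864, 2305 and 2730 counts before and 169, 490 and 2737 counts after isolation, so post-isolation replicate 3 lay above the pre-isolation samples and the other post-isolation samples far below them. The ratio of nuclear- to mitochondrial-encoded subunit counts was 0.527, 0.510 and 0.590 before and 2.63, 1.88 and 1.64 after isolation. For complex IV alone it was 0.124-0.143 before and 0.296-0.480 after isolation, and for complex I it was 0.870-1.20 before and 4.28-8.17 after isolation. Neither ratio overlapped between the groups.

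A few nuclear subunits have symbols outside the rule. The gene *sun*, for the epsilon subunit of ATP synthase, stood at 208, 204 and 214 CPM before and 70.3, 78.8 and 83.6 CPM after isolation, a log2 fold change of -1.43 ± 0.12 (FDR 0.0041). The complex IV subunit gene *cype* went from 64.5, 62.4 and 57.0 CPM to 17.5, 27.4 and 30.1 CPM, -1.30 ± 0.18, which did not pass the 2-fold test (FDR 0.12). Both *sun* and *cype* lay within the range of the listed subunits of their complexes. The paralog *Cyt-c1L*, also outside the rule, had 6, 18 and 10 counts before and 15, 19 and 7 counts after isolation. Its groups overlapped, with a log2 fold change of 0.42 ± 0.71 (FDR 0.65 against no change).

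Other nuclear genes of the pathway were read from lists for comparison. Assembly factors are not subunits but build the complexes or deliver copper and heme, and of 27 listed only 12 were matched to a row. Of these 12, 0 passed the 2-fold test and 3 were lower against no change, a share near the 26.1% of all tested genes. The 3 were *Cox17*, a copper chaperone, *Coa7* and *Taz*, the cardiolipin remodelling enzyme. The median log2 fold change was -0.30 over the list. Of 5 tested genes for other routes of electron entry, 1 was lower by more than 2-fold, *wal*, the alpha subunit of the electron transfer flavoprotein, at -1.65 ± 0.15 (FDR 0.0011). Of 12 tested genes of mitochondrial gene expression and biogenesis, 0 passed the 2-fold test and 1, *srl*, the fly PGC-1, was lower against no change (-0.79 ± 0.20), with a median of -0.11 over the list.

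Among 8 tested carriers and pores, the changes went both ways, with 4 lower and 2 higher against no change. *Mpc1*, of the mitochondrial pyruvate carrier, went from 73.9, 80.8 and 68.3 CPM to 13.5, 13.9 and 21.8 CPM, a log2 fold change of -2.18 ± 0.19 (FDR 4.2e-05). *Bmcp*, a mitochondrial carrier of the uncoupling protein family, was the 1 gene of these lists that rose past the 2-fold test, with a log2 fold change of 1.54 ± 0.16 (FDR 0.0057) and no overlap between the groups. The ADP/ATP translocase gene *sesB* and the outer-membrane pore gene *porin* were lower against no change, at -0.83 ± 0.13 and -0.86 ± 0.11, close to the value of *blw*. The carrier gene *Mpcp2* was instead higher against no change, at 0.35 ± 0.14 (FDR 0.043).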

How the data were processed

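RNA-seq libraries were made from 3 pre-isolation and 3 post-isolation samples. According to the methods, the authors trimmed single-end reads with Trimmomatic, aligned these to BDGP6 (TopHat, Bowtie 2) and took gene counts with HTSeq, set for stranded libraries and otherwise at its defaults, and the deposited counts are not normalised. Reads with several alignments and reads on 2 genes are left out by that counter. Its rows without a gene were left out here: alignments that were not unique made up 86.0-91.7% of all entries, and 44.8-52.4% of the unique ones fell on no gene. Symbols, positions and exonic lengths were taken from an Ensembl gene set of the same BDGP6 assembly. No column of sample values was left unused apart from the authors' CPM table, which was recomputed from the counts.

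Genes above 1 CPM over gene counts in at least 3 samples were tested in edgeR 4.0.16 under R 4.3.3 (TMM, glmQLFit, glmTreat against a fold change of 2, and glmQLFTest against no change), with Benjamini-Hochberg adjustment over all 10378 genes and no replicate block. The SE is the log2 fold change divided by the root of the glmQLFTest F value. CPM values are TMM-normalised, and levels of different genes were compared per kb of exonic length. Same-numbered pre- and post-isolation samples were taken as pairs: the labels give only replicate numbers, and the paper writes of respective pre-isolation samples. The deviations of a pair from the group means correlated at 0.01, 0.05 and -0.01. Alternatives were the replicate block, DESeq2 1.42.0, other scalings and filters, the authors' filtered table and leaving out each sample, plus the legacy quasi-likelihood fit, chosen after seeing the data. The procedure was also run on simulated counts, but with changes larger than those of most members called here, so that run does not cover calls of this size. Named members are, in each complex, the lowest and highest log2 fold change and the highest level per length, a fixed set of core subunits, all members called or above 0, and paralogs with at least 10 counts. A few others are named beside a count. The members and the gene lists (mitochondrial-encoded subunits, assembly, carriers, electron entry, biogenesis, and markers of photoreceptors, glia, muscle, fat body, other neurons, pigment and cone cells, and testis) were chosen with earlier results of these data known.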

Additional observations from a re-analysis of the deposited data

How the results depend on the processing

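The 14 members called lower were all called under the replicate block as well (14 members, median log2 fold change -1.0), with RLE factors, with no filter, with at least 10 counts in every sample, with the authors' filtered table (17 members) and in the legacy fit. The replicate block changed no call of a named member at the 2-fold test, and gave 523 lower and 740 higher genes in all. DESeq2 gave 9 members and 278 lower genes in all, against 508. With library size alone there were 40 members, 1253 lower and 451 higher genes against 757, and medians of -1.459 for the members, -1.319, -0.8371, -1.467, -1.85 and -1.77 for complexes I to V and -0.9568 for the paralogs. With library size alone the direction of *ATPsynB* (-0.3981), *ND-20* (-0.3696), *ND-42* (-0.4332), *ND-75* (-0.3022), *ND-B14.5A* (-0.4267), *ND-SGDH* (-0.2446) and *SdhA* (-0.3198) also turned. The authors' table, of 5262 genes, gave 422 lower and 480 higher genes and turned *ND-42* (-0.03352) and *ND-B14.5A* (-0.0261). The test against no change gave 54 members, 2707 lower and 2535 higher genes. The median of the paralogs was -0.51, became -1.226 with no filter and 0.7843 with at least 10 counts in every sample, which fewer paralogs pass, and ranged from -1.056 to -0.1298 when a sample was left out. Leaving out a sample gave 12 to 16 members lower, 345 to 725 lower and 555 to 942 higher genes, and log2 fold changes of -0.02195 to 0.20 for *ATPsynB*, -0.03266 to 0.14 for *ND-42*, -0.0583 to 0.16 for *ND-B14.5A*, -0.51 to 0.31 for *ND-49L* and -1.17 to 0.03195 for *UQCR-11L*. Without the 10 highest genes of each sample, the members took 1.056% of the counts before and 0.4746% after isolation. The causes of these shifts were not tested. Counts of a few reads per library limit what can be said of the paralogs.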
